A study of Mus musculus with 10 samples.

Results

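The mitochondrial carrier family (SLC25) comprises proteins of the inner mitochondrial membrane that exchange nucleotides, phosphate, organic acids, amino acids, cofactors and metals between the cytosol and the mitochondrial matrix. Each transporter is built from repeats of one folding unit, and most are named after the substrate they carry. In liver these carriers connect the cytosolic with the mitochondrial steps of the urea cycle, the malate-aspartate shuttle, citrate export for lipid synthesis, fatty acid import and heme synthesis. The family was taken as every locus of the table of transcript levels whose symbol begins with Slc25a, together with the uncoupling protein genes Ucp1, Ucp2 and Ucp3. It comprised 50 of 23535 loci with values.

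Levels were available for 6 libraries from livers of mice of a mixed C57/B6 and 129 background, taken at postnatal day 90, at 40 h after a partial hepatectomy. In this operation part of the liver is cut away, and the hepatocytes that remain divide. All 6 carried floxed Arid1a alleles (Arid1a Fl/Fl). The 3 WT libraries carried no Cre by their labels, and the 3 KO libraries also carried Alb-cre. This Cre is driven by the albumin promoter and deletes Arid1a, a subunit of the SWI/SNF chromatin remodeller, mainly in hepatocytes. Other liver cells may keep the gene. Another 4 libraries from livers before the operation, 2 WT and 2 KO, were not analysed here. Nothing in the labels ties the libraries to individual mice, so the p-values cover the spread among these 6 libraries, which may be technical.

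The targeted gene Arid1a lies on chromosome 4 from 133679008 to 133753611 (mm10). Its 3 WT levels were 8.68, 8.45 and 8.49 FPKM, and its 3 KO levels 4.41, 5.57 and 6.15 FPKM. FPKM is the number of fragments per kilobase of transcript, scaled to the fragments mapped in the library, so levels can be compared between genes. Every KO library lay below every WT library, although limma's adjusted p for Arid1a was 0.207. All 10 hepatocyte marker genes listed were found, with a summed level between 49519 and 61939 FPKM, while none of the 10 lymphocyte markers reached a mean of 1 FPKM. From the step between the lowest values, the libraries held an estimated 8660000 to 12400000 fragments, so 1 FPKM on a 2 kb transcript stood for 17.3 to 24.7 fragments. KO replicate 2 stood apart in cell cycle genes. The median of 12 mitotic genes, centred on each gene's mean and relative to all loci on the log2 scale, was -1.53 there, 2.06 and 2.66 in KO replicates 1 and 3, and -1.20, -1.64 and -0.25 in the WT libraries.

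Of the 50 carrier genes, 35 (70.0%) had a mean of at least 1 FPKM over the 6 libraries and were tested, against 46.6% of all loci. The tested carriers had a median mean level of 11.9 FPKM, and all tested loci one of 6.92 FPKM. In sum the family made up 1253 to 1439 FPKM per library, 0.284% to 0.334% of all FPKM. The 5 highest members of each library took 52.4% to 56.6% of this and the 10 highest 78.2% to 83.1%. Mean levels exceeded 50 FPKM for 9 members, lay between 10 and 50 FPKM for 10 and between 1 and 10 FPKM for 16.

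**Figure D1:**
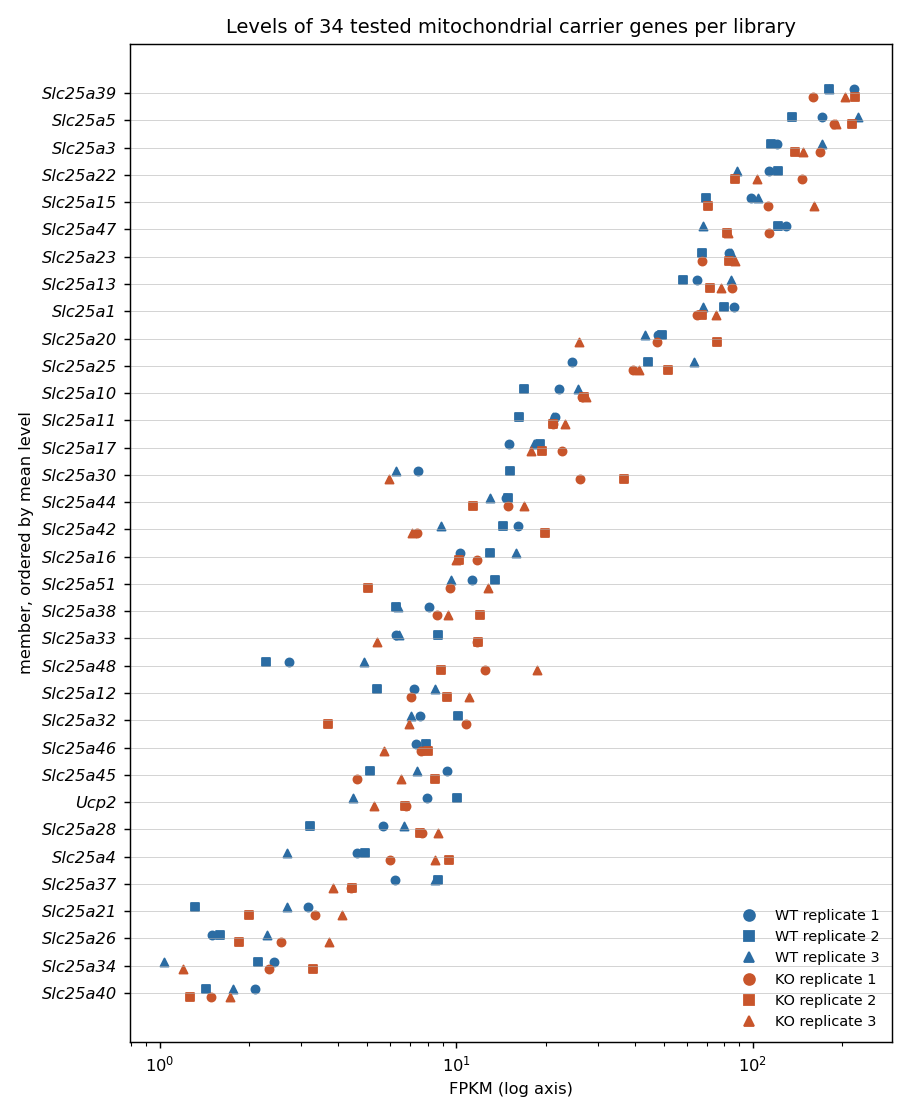
FPKM of 34 of the 35 tested carrier genes in each of the 6 libraries on a log axis, ordered by the mean level, with WT in blue and KO in orange and 1 marker shape per replicate. Slc25a39 is at the top with a mean of 194 FPKM and Slc25a40 at the bottom with 1.63 FPKM, and for most genes WT and KO points lie among each other.

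The glutathione carrier gene Slc25a39 had the highest mean, 194 FPKM. Its level was 219, 181 and 180 FPKM in the WT libraries, against 160, 221 and 204 in the KO libraries. Slc25a5, the ADP/ATP carrier isoform of most tissues outside muscle, was 171, 136 and 226 FPKM in the WT libraries, against 188, 216 and 191 in the KO libraries. WT and KO overlapped in both genes, and the step between their means (6.21 FPKM) was smaller than the spread within genotypes. Slc25a3, which brings the phosphate for ATP synthesis into the matrix, followed with 120, 115 and 171 FPKM in the WT libraries, against 168, 139 and 148 in the KO libraries. Slc25a22, a glutamate carrier, was 114, 122 and 88.3 FPKM in the WT libraries, against 147, 86.8 and 103 in the KO libraries. Slc25a47, a carrier of hepatocytes, was 129, 121 and 67.8 FPKM in the WT libraries, against 114, 82.0 and 82.7 in the KO libraries. For all 3 the WT and KO values overlapped. Slc25a23, a calcium-regulated carrier of ATP-magnesium and phosphate, was 83.1, 67.4 and 84.6 FPKM in the WT libraries, against 67.3, 83.4 and 87.3 in the KO libraries, again without separation. Of the 34 steps between neighbours in the order of mean levels, 6 were larger than the spread within genotypes of both neighbours, and at none did the libraries of both genes stay apart.

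Closely related carriers differed widely in level. Within the ADP/ATP carriers, Slc25a5 had a mean of 188 FPKM, Slc25a4, the isoform of heart and skeletal muscle, 6.01 FPKM, and Slc25a31, the isoform of the male germ line, 0.0268 FPKM. Of the aspartate/glutamate carriers of the malate-aspartate shuttle, Slc25a13 (citrin) had a mean of 73.6 FPKM and Slc25a12 (aralar) one of 8.08 FPKM. Among the calcium-regulated nucleotide carriers, Slc25a23 averaged 78.8 and Slc25a25 44.1 FPKM, Slc25a24 averaged 0.880 FPKM, and Slc25a41 was at the floor of the table in all 6 libraries. One member supplied most of the level in the first and second of these sets, and a pair of members in the third.

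The uncoupling proteins were low in these livers. Ucp1, the heat-producing carrier of brown fat, was listed at the floor in 5 libraries and at 0.0737 FPKM in KO replicate 3, where 1 fragment on 1 kb was worth 0.115 FPKM. Ucp3, known from muscle, was at the floor in 5 libraries and 0.0789 FPKM in WT replicate 1. The fat genes Adipoq, Lep and Plin1 and the muscle genes Ckm, Myh4, Pvalb and Tnnt3 were also at the floor in all 6 libraries. The 6 fat genes listed summed to 3.30 to 4.61 FPKM in WT and 4.49 to 9.45 FPKM in KO. Fabp4 alone gave the KO sums, with 4.49, 9.45 and 8.74 FPKM in replicates 1, 2 and 3. It also gave most of the WT sums, with 4.26, 2.53 and 4.53 FPKM. Its genotypes overlapped, with a log2 difference of 0.81 (unadjusted p = 0.030, adjusted p = 0.304 in limma). Cfd and Cidea rose above the floor only in WT libraries. Ucp2 was measurable, at 7.99, 10.03 and 4.498 FPKM in the WT libraries, against 6.79, 6.70 and 5.26 in the KO libraries, and its WT values enclosed those of KO. Ucp2 is known to be abundant in macrophages, and 12 macrophage genes summed to 127 to 198 FPKM in WT and 141 to 234 FPKM in KO. Whether those cells supplied Ucp2 was not tested.

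Members of the family lay within 100 kb of each other at 5 places, in 4 of them with no other locus between. Slc25a41 and Slc25a23 on chromosome 17 were 2.06 kb apart and Slc25a54 and Slc25a24 on chromosome 3 6.57 kb apart. Ucp3 and Ucp2 on chromosome 7 were 6.91 kb apart, Slc25a29 and Slc25a47 on chromosome 12 15.3 kb (with 1 locus between), and Slc25a43 and Slc25a5 on chromosome X 18.3 kb. Neighbours could differ widely in level. On chromosome X, Slc25a5 had a mean of 188 FPKM and Slc25a43 one of 0.0709 FPKM. Slc25a47 averaged 99.4 FPKM and Slc25a29, a carrier of basic amino acids, 0.846 FPKM. The family as a whole lay on 19 chromosomes. Slc25a25, Slc25a26, Slc25a35, Slc25a2 and Slc25a53 overlapped another locus, so their share of the reads is uncertain. The overlapping locus was the higher one for Slc25a35 (0.473 FPKM beside 3.52 FPKM for Rangrf) and Slc25a26 (2.26 FPKM beside 7.09 FPKM for Lrig1).

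The comparison of KO with WT asks how carrier transcripts differ in regenerating liver whose hepatocytes carry the Arid1a deletion. None of the 35 tested members passed an adjusted p of 0.05 in limma, where 0.119% of all 10956 tested loci did (13 loci). With an unadjusted p under 0.05, 4 members had higher KO levels (Slc25a48, Slc25a4, Slc25a38 and Slc25a28) and 1 was lower (Slc25a37). This is 11.4% and 2.86% of the members, beside 11.2% and 3.99% of all loci, so the shares were near the background. For 5 members every KO library lay above every WT library, against 16.7% of all loci, and for 1 member every KO library lay below, against 5.44%. Together these were 6 of 35 members (17.1%), against 22.1% of all loci. The median log2 difference of the members was 0.11 and that of all loci 0.15, with 17 members above and 18 below the latter. Of the 35, 29 had a log2 difference between -0.4 and 0.4.

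**Figure D2:**
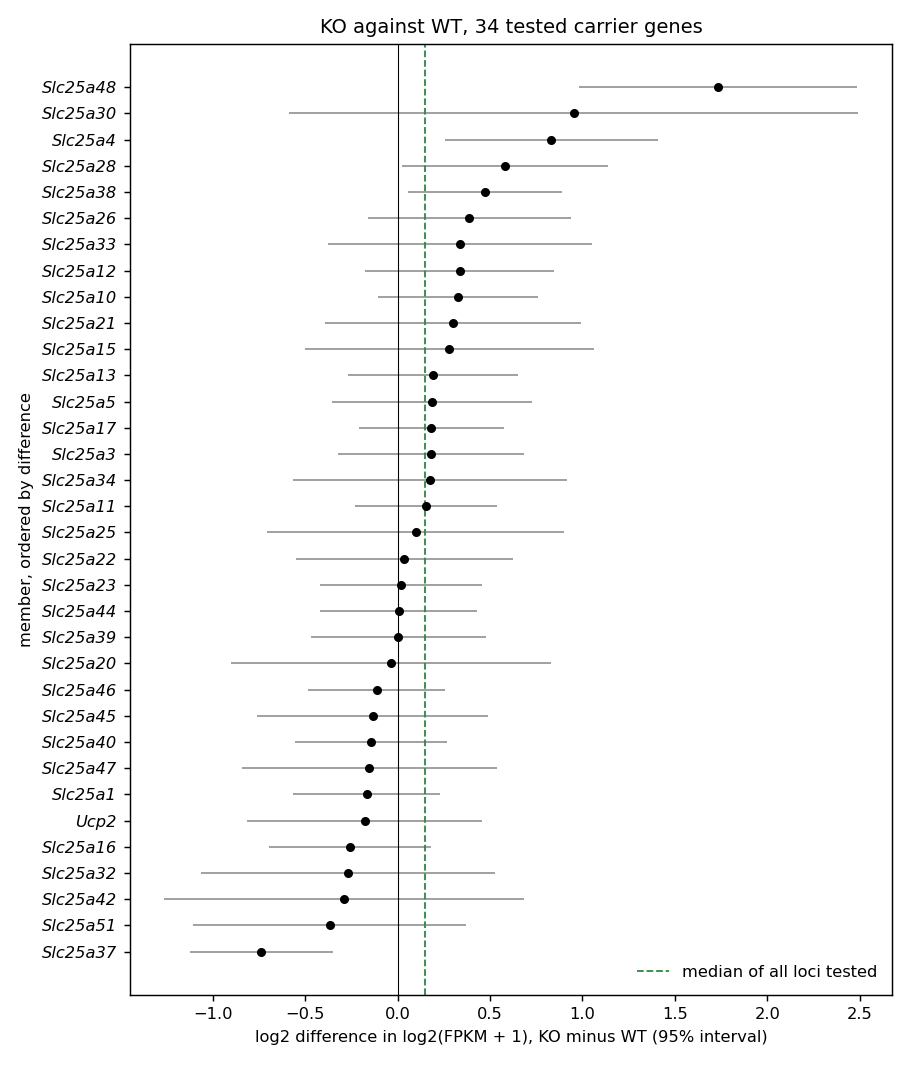
Log2 difference in log2(FPKM + 1) between KO and WT for 34 of the 35 tested members, each with its 95% interval from limma (3 libraries per genotype). The dashed line marks the median of all 10956 loci, 0.15. The intervals of Slc25a48, Slc25a4, Slc25a28, Slc25a38 and Slc25a37 leave out 0, but those of Slc25a28 and Slc25a38 include the dashed line.

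Slc25a48, a relative of the carnitine carrier for which transport of choline into mitochondria has been described, was the member with the largest difference. Its level was 2.74, 2.28 and 4.87 FPKM in the WT libraries, against 12.5, 8.91 and 18.8 in the KO libraries. The lowest KO library lay above the highest WT library, and the mean was 3.30 ± 1.38 in WT libraries against 13.4 ± 4.99 in KO libraries (SD, n = 3 each), 4.06 times as high. The log2 difference was 1.73 (SE 0.32, 95% interval 0.98 to 2.49), with an adjusted p of 0.134 in limma. Without KO replicate 2 it was 1.97, with an adjusted p of 0.0361, the one replicate whose omission brought a member past the threshold. The same omission brought 247 of all loci past it, against 13 with all 6 libraries. The order of the libraries in Slc25a48 followed that of the 12 mitotic genes except in KO replicate 2, whose mitotic genes were at -1.53, within the WT range, while its Slc25a48 lay above all WT libraries. What part cell division has in the difference was not tested. In whole liver tissue, a change in RNA per cell and a change in the share of a cell type cannot be told apart.

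Slc25a4, the muscle-type ADP/ATP carrier, was 4.61, 4.91 and 2.68 FPKM in the WT libraries, against 5.97, 9.44 and 8.47 in the KO libraries. All KO values lay above those of WT, with means of 4.07 ± 1.21 and 7.96 ± 1.79 FPKM (SD, n = 3 each). The log2 difference was 0.83 (SE 0.24), with an adjusted p of 0.239 in limma. Its abundant relative Slc25a5 showed no such separation, with a log2 difference of 0.19 (95% interval -0.35 to 0.73). Of the 8 muscle genes listed, 4 were at the floor in all libraries. All 8 together summed to 2.34 to 3.09 FPKM in WT and 2.39 to 3.20 FPKM in KO. Most of this was Acta1, at 1.70 to 2.53 FPKM in WT and 2.20 to 3.20 FPKM in KO.

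The 2 mitoferrins, which import iron into the matrix for heme and iron-sulphur clusters, lay on opposite sides. Slc25a37 (mitoferrin 1, best known from red cell precursors) was 6.21, 8.71 and 8.45 FPKM in the WT libraries, against 4.41, 4.45 and 3.83 in the KO libraries. It was the one member with all KO libraries below WT, at 7.79 ± 1.37 and 4.23 ± 0.348 FPKM (SD, n = 3 each). The log2 difference was -0.74 (SE 0.16) with an adjusted p of 0.175 in limma. Slc25a28 (mitoferrin 2, the form of most other tissues) was 5.65, 3.22 and 6.67 FPKM in the WT libraries, against 7.67, 7.56 and 8.69 in the KO libraries, all above WT, with a log2 difference of 0.58 (SE 0.23) and an adjusted p of 0.318. Without WT replicate 2 the difference of Slc25a28 was 0.33. In WT mitoferrin 1 was the higher of the pair in all 3 libraries, and in KO mitoferrin 2 was.

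Red cell genes also varied between these libraries. The 9 of 13 listed symbols that were found summed to 43.8 to 61.1 FPKM in WT and to 22.0, 31.6 and 89.8 FPKM in KO replicates 1, 2 and 3, so that KO replicate 3 had the highest sum of red cell genes and the lowest Slc25a37. The 5 tested red cell loci had a median log2 difference of -0.60 relative to all loci, and they lay on both sides of 0. Alas2 was 5.95 ± 1.91 FPKM in WT libraries against 6.86 ± 1.63 in KO libraries (SD, n = 3 each), a log2 difference of 0.19, with overlapping values. Both tested loci of Hba-a2, a globin gene, were lower on average in KO (log2 differences -1.48 and -1.38), low in KO replicates 1 and 2 and highest in KO replicate 3, and Hbb-b2, another globin gene, had a log2 difference of -0.45. The 1 locus with an unadjusted p under 0.05 was higher in KO, a locus of Hba-a1 at 0.0161 ± 0.0139 FPKM in WT libraries against 2.08 ± 1.53 in KO libraries (SD, n = 3 each). Hba-a1 and Hba-a2 are each listed at more than 1 near-identical locus, so their division of reads is uncertain. What part red cell RNA has in Slc25a37 was not tested.

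Slc25a38, which imports glycine for the first step of heme synthesis, was 8.10, 6.27 and 6.34 FPKM in the WT libraries, against 8.598, 12.1 and 9.40 in the KO libraries. The margin between the genotypes was narrow, with a log2 difference of 0.47 (SE 0.18) and an adjusted p of 0.306 in limma. Slc25a10, the dicarboxylate carrier, was 22.2, 17.0 and 25.8 FPKM in the WT libraries, against 26.6, 26.9 and 27.4 in the KO libraries. Its KO values were close together just above the highest WT value, and the log2 difference was 0.32 (SE 0.18, adjusted p = 0.419).

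**Figure D3:**
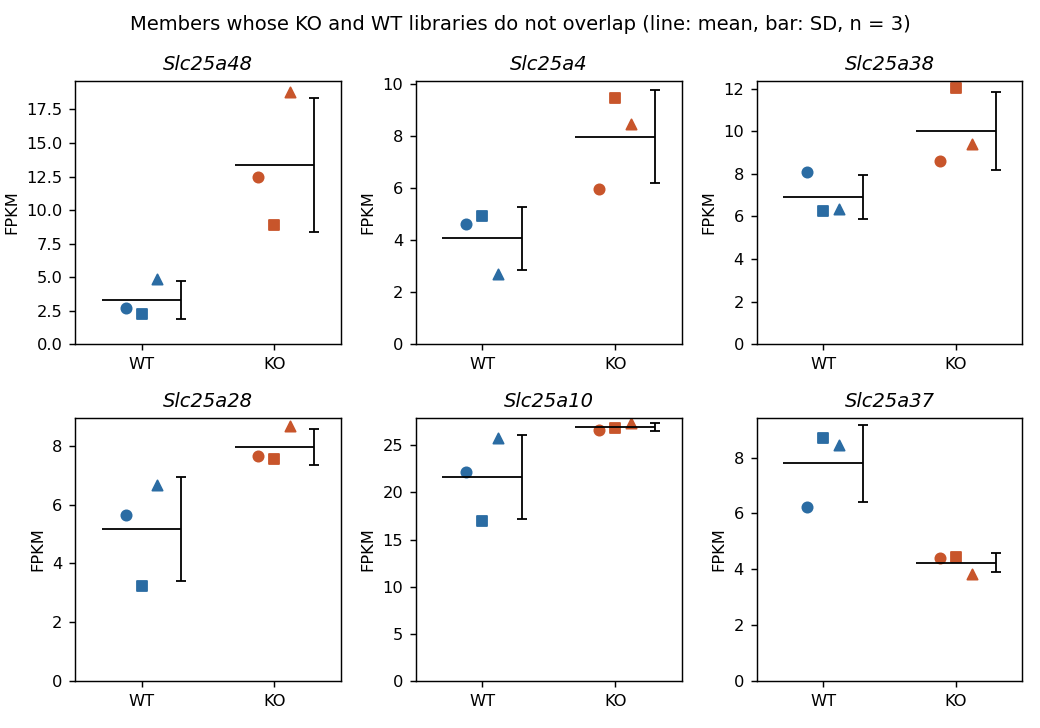
FPKM per library of the 6 members whose WT (blue) and KO (orange) libraries did not overlap, with the mean as a line and the SD as a bar (n = 3 each) and axes from 0. Slc25a37 is the one member lower in KO, and Slc25a48 has the widest gap between genotypes, from 4.87 to 8.91 FPKM.

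These separations depended in part on the scaling between libraries. As deposited, the median log2 difference of all loci was 0.15. After median-of-ratios rescaling the median of all loci was 0.02, and 3 members remained above WT in all KO libraries (Slc25a48, Slc25a4 and Slc25a28), while 3 lay below (Slc25a37, Slc25a16 and Slc25a46), against 7.95% and 9.69% of all loci. Slc25a38 and Slc25a10 then overlapped. Slc25a48 and Slc25a4 were still higher and Slc25a37 lower at an unadjusted p under 0.05 after this rescaling and after quantile normalization. Slc25a28 and Slc25a38 no longer reached it after either, and Slc25a16 was lower after quantile normalization (unadjusted p = 0.039 in limma). After each, 1318 of all loci had an unadjusted p under 0.05, against 1668 as deposited.

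The deposited table gives no sequence, and the 250 bases before the annotated start are shown for the 4 members that had higher KO levels with an unadjusted p under 0.05, so that the start regions of genes on one side of the comparison can be compared. They are RefSeq sequences of GRCm38.p6, the assembly of mm10, and a sequence for Slc25a37 was not used here. Each is written from 5′ to 3′ in the direction of transcription, with every match to 1 of 8 promoter motifs in capitals. The windows are chr13:56438105-56438354 (plus strand) for Slc25a48, chr8:46211063-46211312 (minus strand) for Slc25a4, chr9:120110132-120110381 (plus strand) for Slc25a38 and chr19:43674882-43675131 (minus strand) for Slc25a28.
Slc25a48: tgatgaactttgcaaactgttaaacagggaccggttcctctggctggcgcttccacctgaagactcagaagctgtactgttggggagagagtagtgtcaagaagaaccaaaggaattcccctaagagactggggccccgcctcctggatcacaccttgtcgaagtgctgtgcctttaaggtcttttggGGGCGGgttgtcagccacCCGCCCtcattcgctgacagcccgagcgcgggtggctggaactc
Slc25a4: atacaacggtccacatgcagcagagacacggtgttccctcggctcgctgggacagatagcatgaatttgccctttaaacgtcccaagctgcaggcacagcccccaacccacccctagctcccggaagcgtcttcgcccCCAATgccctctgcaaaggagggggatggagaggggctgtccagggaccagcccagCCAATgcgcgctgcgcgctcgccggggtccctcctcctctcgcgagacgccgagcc
Slc25a38: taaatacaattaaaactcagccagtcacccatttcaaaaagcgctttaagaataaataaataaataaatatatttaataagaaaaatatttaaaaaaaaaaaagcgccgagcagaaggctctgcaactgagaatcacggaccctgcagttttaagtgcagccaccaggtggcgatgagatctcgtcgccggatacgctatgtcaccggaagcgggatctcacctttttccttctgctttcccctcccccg
Slc25a28: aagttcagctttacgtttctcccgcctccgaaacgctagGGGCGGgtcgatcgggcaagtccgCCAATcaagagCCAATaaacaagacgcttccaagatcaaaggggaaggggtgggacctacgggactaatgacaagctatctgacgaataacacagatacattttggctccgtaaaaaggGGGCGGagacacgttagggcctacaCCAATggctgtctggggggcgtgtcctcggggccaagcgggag

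The motifs were searched on both strands, and none contains another. They were the TATA box (TATAAA), the CCAAT box (CCAAT), the GC box (GGGCGG), the E-box (CACGTG), an ETS site (CCGGAAGT), the NRF1 site, an ERR site (TCAAGGTCA) and the DR1 site of PPAR and HNF4. The 4 windows had no common match. Slc25a48 held 2 GC boxes, which began 62 and 44 bases before the start, and Slc25a4 held 2 CCAAT boxes, 112 and 56 bases before it. Slc25a28 held 3 CCAAT boxes and 2 GC boxes, and Slc25a38 held none of the 8, with a GC content of 41.6% against 55.6% to 64.8% in the other three.

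RefSeq windows matched 39 of the 50 members. GC boxes were found in 26 of these 39 genes (66.7%) and in 35.4% of 27025 genes with a window, CCAAT boxes in 18 (46.2%) and 37.5%, and E-boxes in 7 (17.9%) and 6.86%. TATA boxes were found in 2 (5.13%) and 14.3%. NRF1 sites were found in 2 (5.13%) and 4.23%, and ETS sites in 1 (2.56%) and 3.23%. The carrier windows were also richer in G and C, with a median of 57.6% against 52.4% over all windows and a median of 12 against 6 CpG dinucleotides. No carrier window held the ERR or the DR1 motif as searched, which 0.422% and 0.0407% of all genes did.

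Apart from a pseudocount of 0.1 FPKM, ratios between related carriers within a library do not depend on the scaling between libraries. Of 14 pairs listed, 8 had both members at a mean of at least 1 FPKM, and no difference between genotypes passed an adjusted p of 0.05 over the 8 pairs. The exact two-sided permutation test over the 20 ways to assign 3 libraries cannot give a p below 0.1. The mitoferrin pair had the largest shift of the 8. The log2 ratio of Slc25a28 to Slc25a37 was -0.13, -1.41 and -0.34 in the WT libraries, against 0.78, 0.75 and 1.16 in the KO libraries, without overlap. The mean shifted by 1.52, from -0.63 ± 0.68 to 0.90 ± 0.23 (SD, n = 3 each, exact permutation p = 0.1, the smallest this design allows, adjusted p = 0.533).

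The other pairs overlapped between genotypes. For Slc25a4 to Slc25a5 the 3 WT log2 ratios were -5.18, -4.76 and -6.34 and the 3 KO log2 ratios -4.95, -4.50 and -4.48, a shift of 0.79 (exact permutation p = 0.2, adjusted p = 0.533). Without WT replicate 3, which had the lowest ratio, the shift was 0.33. Slc25a10 to Slc25a11, the dicarboxylate and oxoglutarate carriers, shifted by 0.18 (exact permutation p = 0.2, adjusted p = 0.533). For Slc25a39 to Slc25a40, both near relatives in glutathione transport, the shift was 0.22 (exact permutation p = 0.5, adjusted p = 0.8). Slc25a12 to Slc25a13 shifted by 0.18, again at an exact permutation p of 0.5. The log2 ratio of Slc25a23 to Slc25a25 was 1.76 in WT replicate 1 and ran from 0.42 to 1.08 elsewhere, and that of the carnitine carrier gene Slc25a20 to its relatives Slc25a45 and Slc25a47 shifted by 0.11 in each case.

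**Figure D4:**
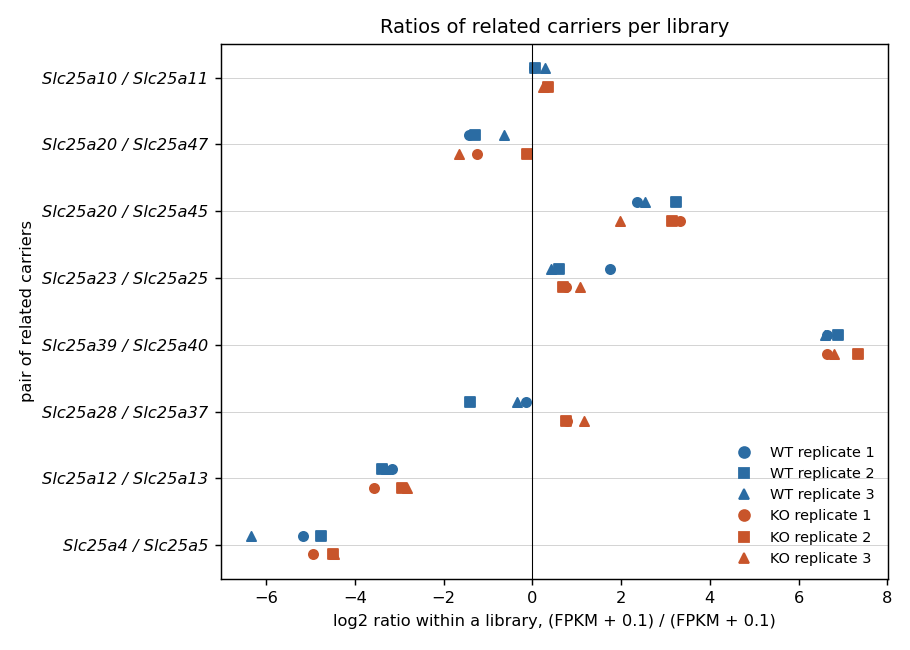
Log2 ratio of FPKM (each plus 0.1) within each library for the 8 pairs of related carriers, with WT in blue above and KO in orange below each line. Slc25a28 to Slc25a37 is the pair whose genotypes do not overlap, at or below -0.13 in WT and at or above 0.75 in KO.

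By role, the carriers of adenine nucleotides and phosphate comprised 10 members, of which 7 were tested, and their summed level was 402 to 574 FPKM in WT and 499.5 to 541 FPKM in KO. None passed the threshold, and 1 (Slc25a4) reached an unadjusted p under 0.05. Slc25a42, which imports coenzyme A, was 16.1, 14.3 and 8.88 FPKM in the WT libraries, against 7.36, 19.98 and 7.12 in the KO libraries. KO replicate 2 held the highest value and the other KO libraries the lowest. Slc25a17, the family's carrier of peroxisomes, was 17.5 ± 2.18 FPKM in WT libraries against 20.02 ± 2.51 in KO libraries (SD, n = 3 each).

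All 4 carriers of di- and tricarboxylates and oxoacids were tested. Slc25a1, which exports citrate for the synthesis of fatty acids and sterols, was 86.2, 79.7 and 68.1 FPKM in the WT libraries, against 64.7, 67.6 and 75.2 in the KO libraries, a log2 difference of -0.17 (95% interval -0.56 to 0.23). Slc25a11, the oxoglutarate carrier, was 19.7 ± 2.98 FPKM in WT libraries against 21.9 ± 1.14 in KO libraries, and Slc25a21, the oxodicarboxylate carrier, 2.39 ± 0.957 and 3.15 ± 1.06 FPKM (SD, n = 3 each). Values of WT and KO overlapped in each of these 3 genes.

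Of the 9 amino acid carriers 6 were tested, and Slc25a38 alone reached an unadjusted p under 0.05. Slc25a15 exchanges ornithine and citrulline for the urea cycle. Its level was 98.7, 69.6 and 104 FPKM in the WT libraries, against 113, 70.7 and 161 in the KO libraries, a log2 difference of 0.28 (95% interval -0.50 to 1.06). The spread between libraries exceeded the difference between genotypes, with WT replicate 2 and KO replicate 2 low and KO replicate 3 high. The 6 urea cycle enzyme genes had their lowest medians in the same 2 libraries, -0.35 in WT replicate 2 and -0.80 in KO replicate 2, and their highest, 0.58, in KO replicate 3 (log2, centred on each gene's mean and relative to all loci). This resemblance was seen after the values were known and is given without a test. The aspartate/glutamate carrier gene Slc25a13 was 64.97, 57.98 and 84.2 FPKM in the WT libraries, against 84.7, 71.5 and 78.3 in the KO libraries. Its relative Slc25a12 was 7.19, 5.40 and 8.49 FPKM in the WT libraries, against 7.05, 9.30 and 11.04 in the KO libraries (0.33 on the log2 scale, SE 0.22, adjusted p = 0.474 in limma). Both had their lowest value in WT replicate 2, and their genotypes overlapped. Slc25a44, a carrier of branched-chain amino acids, was nearly level at 14.2 ± 1.07 and 14.4 ± 2.81 FPKM.

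Slc25a20, which exchanges acylcarnitines for carnitine in fatty acid oxidation, was 47.9, 49.2 and 43.2 FPKM in the WT libraries, against 47.5, 75.8 and 25.9998 in the KO libraries. The 3 WT libraries lay close together, with a coefficient of variation of 6.81%, and the KO libraries were spread on both sides of them, with one of 50.2%. The log2 difference was -0.04 (95% interval -0.90 to 0.83). The 7 tested carnitine shuttle partners included Cpt1a, Cpt2 and Acadm. On the same centred log2 scale their median was 0.24 in KO replicate 2 and -0.43 in KO replicate 3. The other 4 libraries ran from -0.16 to 0.40, with the highest median in WT replicate 2. These medians were set beside Slc25a20 after the values were known and are given without a test. Like Slc25a20, Slc25a42 was highest in KO replicate 2 and lowest in KO replicate 3. Slc25a45, another relative, was 7.26 ± 2.09 FPKM in WT libraries against 6.52 ± 1.92 in KO libraries (SD, n = 3 each).

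**Figure D5:**
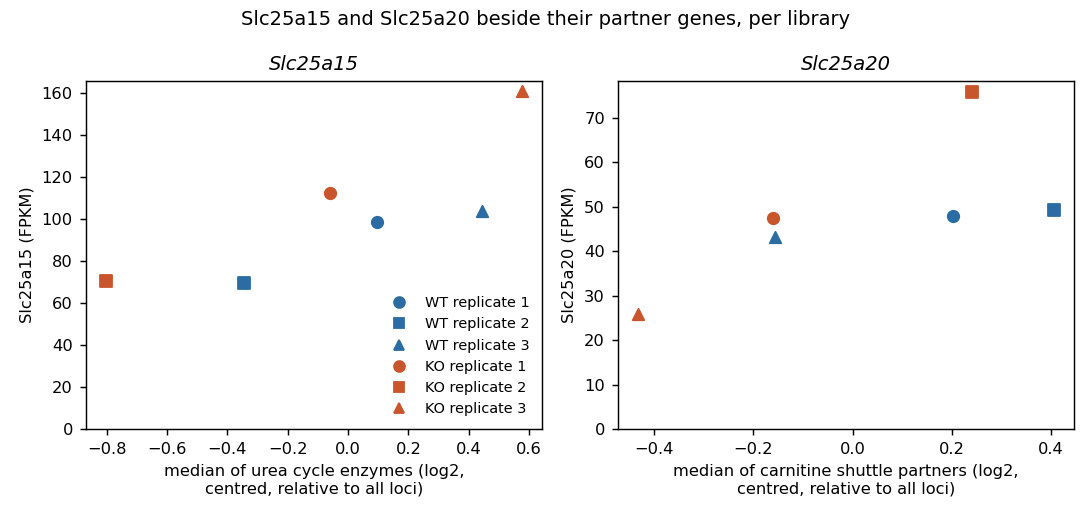
Level of Slc25a15 against the median of 6 urea cycle genes, and of Slc25a20 against the median of the 7 tested carnitine shuttle genes, 1 point per library (FPKM against log2 values centred per gene and relative to all loci). KO replicate 3 holds the highest Slc25a15 at 161 FPKM and the lowest Slc25a20 at 25.9998 FPKM.

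Of the 11 carriers of cofactors, pyrimidine nucleotides, glutathione and iron, 10 were tested, 3 above and 7 below the median difference of all loci. Apart from the mitoferrins none reached an unadjusted p under 0.05. Slc25a51, the NAD carrier, was 11.3, 13.5 and 9.59 FPKM in the WT libraries, against 9.50, 5.05 and 12.8 in the KO libraries. Slc25a32, linked to folate and FAD, was 7.55, 10.1 and 7.06 in the WT libraries, against 10.8, 3.70 and 6.93 in the KO libraries. Both were lowest in KO replicate 2. Slc25a26, the carrier of S-adenosylmethionine, was 1.496, 1.59 and 2.31 FPKM in the WT libraries, against 2.57, 1.86 and 3.71 in the KO libraries (0.39 on the log2 scale, SE 0.23, adjusted p = 0.442 in limma). Slc25a33, a carrier of pyrimidine nucleotides, was 6.24, 8.69 and 6.40 in the WT libraries, against 11.8, 11.9 and 5.39 in the KO libraries. Its 2 highest values were in KO, and its lowest as well. Slc25a40, the near relative of Slc25a39, was 2.10, 1.43 and 1.77 FPKM in the WT libraries, against 1.49, 1.27 and 1.73 in the KO libraries, with overlap. Slc25a16, without a settled substrate, was 10.3, 12.99 and 15.96 FPKM in the WT libraries, against 11.8, 10.2 and 9.97 in the KO libraries (log2 difference -0.26, SE 0.18, adjusted p = 0.516).

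Slc25a30, a relative of the uncoupling proteins first described in kidney, varied more between libraries than any other tested member except Slc25a48. It was 7.42, 15.1 and 6.25 FPKM in the WT libraries, against 26.1, 36.9 and 5.93 in the KO libraries. The highest value was 6.22 times the lowest, and both were in KO libraries. The log2 difference of 0.95 (SE 0.65, adjusted p = 0.493 in limma) had a 95% interval from -0.59 to 2.49. It was 0.46 without KO replicate 2 and 1.69 without KO replicate 3 (adjusted p = 0.305 in limma). Slc25a46, a member of the outer membrane involved in mitochondrial fusion and fission, was 7.70 ± 0.345 FPKM in WT libraries against 7.11 ± 1.21 in KO libraries (SD, n = 3 each). Slc25a34, without an assigned substrate, was 1.87 ± 0.736 and 2.28 ± 1.05 FPKM.

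The 15 members under a mean of 1 FPKM were not tested. Slc25a14, the highest of them, had a mean of 0.920 FPKM, and Slc25a40, the lowest tested member, one of 1.63 FPKM. Slc25a41 and Slc25a54 were at the floor in all 6 libraries, and 8 members were at the floor in at least 1. Slc25a27, a brain relative of the uncoupling proteins, was 0.143, 0.476 and 0.620 FPKM in the WT libraries, against 1.15, 0.554 and 0.897 in the KO libraries. Slc25a35 was 0.273, 0.0455 and 0.633 FPKM in the WT libraries, against 0.704, 0.530 and 0.654 in the KO libraries. WT and KO overlapped in both genes. Slc25a18, the second glutamate carrier, known from brain, averaged 0.202 FPKM beside 110 FPKM for Slc25a22.

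Genes that work with the carriers were also compared, and none passed the threshold in limma. Of 17 tested genes of other mitochondrial transporters and channels, 3 had higher KO levels with an unadjusted p under 0.05 and 0 lower ones, beside 11.2% and 3.99% of all loci. Among them, Efha1, a regulator of the calcium uniporter, was 9.55 ± 1.73 FPKM in WT libraries against 14.7 ± 1.06 in KO libraries, and Sfxn1, a serine transporter, 20.9 ± 1.84 and 29.4 ± 1.81 (SD, n = 3 each). All KO libraries were above WT in both. Of 15 genes of the TOM and TIM22 complexes and their chaperones, which insert carriers into the inner membrane, 0 reached an unadjusted p under 0.05, and their median log2 difference relative to all loci was 0.14. The 18 genes of the tricarboxylic acid cycle also had 0, with a median log2 difference of -0.13 relative to all loci. The same count was 0 for the 8 partners of the malate-aspartate shuttle and citrate export, the 6 urea cycle genes and the 7 tested carnitine shuttle partners.

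Of 16 ATP synthase genes 1 had a higher KO level with an unadjusted p under 0.05. This was Atpif1, the inhibitory factor of the enzyme, at 41.5, 27.1 and 42.7 FPKM in the WT libraries, against 69.7, 51.6 and 127 in the KO libraries. The 13 partners of the iron and glycine carriers in heme and iron-sulphur synthesis had a median log2 difference of 0.03 relative to all loci. Alas1, the enzyme that uses the imported glycine in liver, was 132 ± 30.1 FPKM in WT libraries against 97.6 ± 21.3 in KO libraries (SD, n = 3 each), with overlapping values. Mtch1 and Mtch2, carrier-fold proteins of the outer membrane listed under other symbols, were 14.04 ± 1.90 and 31.98 ± 3.90 FPKM in WT and 16.7 ± 0.916 and 29.2 ± 2.004 FPKM in KO.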

How the data were processed

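The 6 RNA sequencing libraries from livers at 40 h after hepatectomy were analysed, 3 WT and 3 KO, matched to the columns by genotype and replicate number. Per the file headers, the authors deposited FPKM per gene locus. The headers name no genome build. All 50 members overlapped their RefSeq positions on GRCm38, the assembly of mm10, so positions were read as mm10. TopHat, edgeR and 2 genome builds (mm9, mm10) appear in the submitters' processing notes with no role stated, and no source used here gives the filter behind the low-data mark. Of 23847 loci, 312 held a low-data mark in place of a value and were left out. The floor of 0.001 FPKM was set to 0. Values were analysed as log2(FPKM + 1), on which a difference understates the change of low genes. Loci with a mean of at least 1 FPKM (10956) were compared in limma 3.58.1 (R 4.3.3, eBayes with a trend, genotype as the only term, two-sided, Benjamini-Hochberg adjustment over all loci, threshold 0.05). The fit was tested on simulated data. Depth was estimated from 2085 genes with 1 transcript in GENCODE, using the FPKM worth of 1 fragment per kilobase.

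Members, gene lists and pairs were chosen with earlier results of these data known. Values in every library were given for the 12 members with the smallest p, the 8 with the highest level, those whose genotypes did not overlap and members of up to 4 pairs with the largest change, and further members and partner genes were named after their values were seen. Fragments from overlapping or near-identical loci were divided by the authors' software, and whether strand was kept is not given. Alternatives were another pseudocount (0.1), no filter, 2 rescalings, no trend, a replicate block and leaving out each library. Some values, 1 tested member among them, are not reported here and not plotted.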

Additional observations from a re-analysis of the deposited data

How the results depend on the processing

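No member passed the threshold under a pseudocount of 0.1, no filter, either rescaling or no trend. With the replicate number as a block, 1 did (Slc25a48, log2 difference 1.73, adjusted p = 0.0261), and 47 of all loci did. The labels do not say whether the numbers pair the libraries. The deviations of same-numbered libraries correlated at -0.08, 0.16 and 0.16, and WT replicate 1 correlated best with KO replicate 2. With 3 libraries per genotype these values cannot settle a pairing, so the fit without a block was kept as the main one. Leaving out 1 library gave 0 to 1 members past the threshold (1 without KO replicate 2, Slc25a48 at 1.97), and 0 to 247 of all loci, with 0 without WT replicate 1 (943 at an unadjusted p under 0.05) and 247 without KO replicate 2. Without a filter 6 loci passed. The cause was not tested.

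Members with higher KO levels and an unadjusted p under 0.05 numbered 2 after median-of-ratios rescaling and 2 after quantile normalization, and 2 to 4 with 1 library left out. Members lower in KO numbered 2 after quantile normalization and 1 to 2 with 1 library left out. The background moved as well. In either direction, 1668 of 10956 loci had an unadjusted p under 0.05 as deposited. The same count was 1318 of 10940 after median-of-ratios rescaling, 1318 of 10956 after quantile normalization and 943 to 1974 with 1 library left out. Members with all KO libraries above WT numbered 3 after each rescaling (7.95% and 7.5% of all loci) and 5 to 9 with 1 library left out (20.6% to 28.5% of all loci), and those with all KO libraries below WT 3 after median-of-ratios rescaling (9.69%), 4 after quantile normalization (10.2%) and 2 to 4 with 1 library left out (7.23% to 10.6%), where 2 against 3 libraries separate more easily. The members' median relative to all loci, -0.04, was 0.0195 without a filter and ranged from -0.0996 to 0.0013 with 1 library left out.

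For 20 named members, 221 of 240 recomputed log2 differences kept their direction and side of the threshold, and 17 reversed. The reversals were in Slc25a39, Slc25a22, Slc25a23, Slc25a15 and Slc25a47. Slc25a39 was -0.15 and -0.12 after median-of-ratios rescaling and quantile normalization and -0.093 to 0.14 with 1 library left out, Slc25a22 was -0.11 and -0.042 after the rescalings and -0.17 to 0.20, and Slc25a23 was -0.14 and -0.10 and -0.088 to 0.13. With 1 library left out Slc25a15 ranged from -0.0021 to 0.59 and Slc25a47 from -0.44 to 0.016. Among pair ratios, with 1 library left out the shift of Slc25a23 to Slc25a25 ranged from -0.34 to 0.33, that of Slc25a20 to Slc25a45 ranged from -0.14 to 0.54 and that of Slc25a20 to Slc25a47 from -0.34 to 0.44. Differences moved by over 1.5 times without changing direction or call with 1 library left out in Slc25a30 (0.46 to 1.69), Slc25a28 (0.33 to 0.76), Slc25a10 (0.17 to 0.45), Slc25a12 (0.18 to 0.49), Slc25a13 (0.075 to 0.34), Slc25a16 (-0.41 to -0.11), Slc25a26 (0.20 to 0.56), Slc25a3 (0.077 to 0.36), Slc25a33 (0.17 to 0.67), Slc25a5 (0.0095 to 0.37) and Slc25a51 (-0.63 to -0.037), and in the shifts of Slc25a4 to Slc25a5 (0.33 to 1.12), Slc25a12 to Slc25a13 (0.036 to 0.41) and Slc25a39 to Slc25a40 (0.019 to 0.36). Precision is lowest at low levels, where 1 FPKM on a 2 kb transcript stood for 17.3 to 24.7 fragments.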
